A study of Homo sapiens with 6 samples.

Results

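The HOX genes of the 4 human clusters were examined for peaks of H3AcK9, histone 3 acetylated at lysine 9, in SKOV3 wt cells exposed to the histone deacetylase inhibitors (HDACis) vorinostat and romidepsin. Genes were chosen by position, as the HOX genes lying in 4 fixed windows of genome build hg19, and the rule uses no measured value. The windows were chr7:27130000-27250000 for HOXA, chr17:46600000-46810000 for HOXB, chr12:54330000-54450000 for HOXC and chr2:176940000-177060000 for HOXD. Of the 39 HOX genes, 38 are described, and 1 was not analysed here.

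SKOV3 wt is an established human ovarian carcinoma line, and wt marks the parental cells, with no further allele given. There were 3 conditions, namely untreated cells, cells given vorinostat at 1 times its IC50 for 24 h and cells given romidepsin at 1 times its IC50 for 24 h. Each condition had 1 ChIP sample, and the company that sequenced them divided either treated sample in 2, so that the files hold 1 untreated, 2 vorinostat and 2 romidepsin peak lists. Both lists of a drug therefore come from 1 sample, are not taken as replicates and show technical spread only, and no test was made. The study's text also speaks of the lists as independent experiments or biological replicates, against the labels and its summary of methods.

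HOX genes encode homeodomain transcription factors that give cells their position along the body axis. Within a cluster the genes lie in the order in which they act, from the early, anterior paralogues at the 3' end to the late, posterior paralogues at the 5' end, and the posterior HOXA genes pattern the Müllerian duct, from which the oviduct, uterus and cervix develop. Acetylation of H3 at lysine 9 marks active promoters, and the HDACs that remove it are the targets of both drugs. In differentiated cells, silent HOX genes are typically held under Polycomb repression, whereas active stretches carry broad domains of acetylated histones.

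The untreated list held 376666 peaks covering 344 Mb, and the treated lists held between 884242 and 913199 peaks covering between 296 and 325 Mb. Over the whole lists, vorinostat gave 2.42 times and romidepsin 2.36 times as many peaks as untreated cells, with 0.879 and 0.920 times the covered bases, so that treated lists held more peaks on fewer bases. These totals take every chromosome of each list, and only 20 chromosomes were present in all lists, so the chromosome sets may differ. The lists hold no read totals, so the depth behind each list is not known here and no interval could be given. Of the 2000 bp around the starts of the epithelial genes KRT8, KRT18, ERBB2 and EPCAM, between 780 and 2000 bp were covered in all 5 lists. Around the starts of ALB and MYOD1, markers of liver and muscle, the untreated list had no covered base, and around PTPRC and CD3E, markers of leukocytes, it had 235 and 185 bp. In treated lists ALB and PTPRC had no covered base, and MYOD1 had none with vorinostat and 177 and 167 bp with romidepsin. CD3E had 471 and 374 bp with vorinostat and 1034 and 0 bp with romidepsin, so treated lists separated these markers less cleanly.

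In untreated cells the 4 windows carried 130 peaks, which covered 53.4% of 570 kb. Cover was 59.4% in HOXB, 57.8% in HOXA, 52.0% in HOXD and 39.9% in HOXC. Peaks thus covered large shares of all 4 clusters, and stretches of equal length across the genome were seldom covered as much. Such stretches were taken on the 20 chromosomes present in all lists, where they held an untreated base. The median 120-kb stretch was covered to 8.32%, and 1.13%, 2.16% and 6.82% of such stretches reached the cover of HOXA, HOXD and HOXC. For HOXB, 0.487% of 210-kb stretches reached its cover. The flanks, as long as the cluster on either side, were covered to 20.5%.

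With the HDACis the clusters differed from each other. HOXA was covered to 42.3% and 41.3% with vorinostat and 48.3% and 47.1% with romidepsin. HOXD was covered to 34.5% and 34.6% with vorinostat and 40.8% and 40.2% with romidepsin. HOXA and HOXD thus lay below the untreated value in all 4 treated lists. HOXB was covered to 60.6% and 58.5% with vorinostat, on either side of the untreated value, and to 65.5% and 62.1% with romidepsin. HOXC was covered to 35.3% and 31.9% with vorinostat, below untreated, and to 43.9% and 40.8% with romidepsin, above it.

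As a fold of the untreated value, with the mean of both lists, vorinostat gave 0.724 for HOXA, 1.00 for HOXB, 0.843 for HOXC and 0.664 for HOXD. Romidepsin gave 0.826, 1.07, 1.06 and 0.779 in the same order, and both drugs are set against the same untreated list. For comparison, the stretches of the genome with at least 80% of the untreated cover of HOXA had median folds of 0.798 with vorinostat and 0.941 with romidepsin, those matching HOXB in this way 0.796 and 0.963, those matching HOXC 0.792 and 0.945, and those matching HOXD 0.797 and 0.941. HOXA and HOXD stood below and HOXB and HOXC above these medians with both drugs. The spread among the matched stretches was not computed. Of all stretches with an untreated base, 24.6%, 55.4%, 39.9% and 17.3% had a vorinostat fold no higher than HOXA, HOXB, HOXC and HOXD. With romidepsin these shares were 40.1%, 66.9%, 64.6% and 35.2%, so no cluster lay at an extreme. HOXC with vorinostat lay below the median of all stretches of its length, 0.935. The flanks had folds with vorinostat and romidepsin of 0.921 and 0.933 at HOXA, 1.10 and 1.24 at HOXB, 1.33 and 0.789 at HOXC and 0.547 and 0.533 at HOXD. Flanks and cluster thus lay on the same side of untreated at HOXA and HOXD with both drugs and at HOXB with romidepsin. They lay on opposite sides at HOXC with either drug. The HOXB cluster with vorinostat had 1 list on either side of untreated. Between the drugs, romidepsin left more cover than vorinostat in each cluster, by 1.14 times in HOXA, 1.07 times in HOXB, 1.26 times in HOXC and 1.17 times in HOXD.

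Peaks were more numerous with both drugs in all 4 clusters, whereas cover was not. HOXA held 32 untreated peaks against 79 in each vorinostat list and 110 and 105 in the romidepsin lists. HOXD held 26 untreated peaks against 81 and 80 with vorinostat and 94 and 96 with romidepsin. Peak number was 2.79 times the untreated value over the 4 clusters with vorinostat and 3.28 times with romidepsin. The median peak of these windows was 940 bp wide in untreated cells and between 291 and 336 bp in treated lists. Since treated peaks were split by short gaps, joining peaks decides the direction of several cover folds: with gaps of up to 1000 bp closed, the fold for the 4 clusters changed from 0.845 to 1.11 with vorinostat and from 0.955 to 1.28 with romidepsin. The whole lists then had folds of 1.28 and 1.36.

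**Figure D1:**
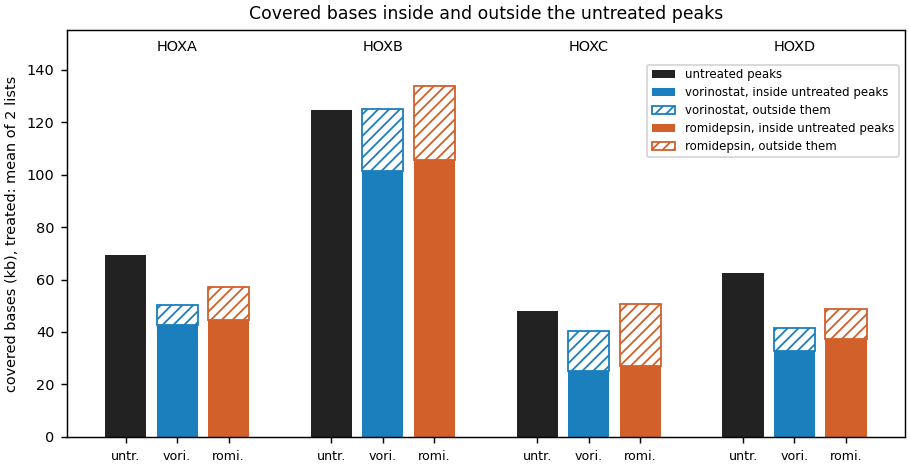
Covered bases in kb of each HOX cluster window in the untreated list (black) and in treated lists (mean of 2 lists), where solid bars lie inside untreated peaks and hatched bars outside them. HOXB has the tallest solid treated bars against its untreated bar, and HOXC the largest hatched share.

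Treated cover was divided into bases inside and outside the untreated peaks. Within HOXB, 81.3% of the untreated bases were still covered with vorinostat and 84.6% with romidepsin. In HOXA these shares were 61.6% and 64.4%, in HOXC 52.1% and 56.3% and in HOXD 52.2% and 59.6%. Retention was thus highest in HOXB and similar in HOXC and HOXD. On the 20 chromosomes present in all lists, 42.1% and 44.9% of untreated bases were kept. Bases outside the untreated peaks amounted to 15392 bp with vorinostat and 23865 bp with romidepsin in HOXC, against 7476 and 12566 bp in HOXA, a window of the same length. The near-constant total of HOXC with romidepsin was therefore made up of bases outside as well as inside the untreated peaks.

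**Figure D2:**
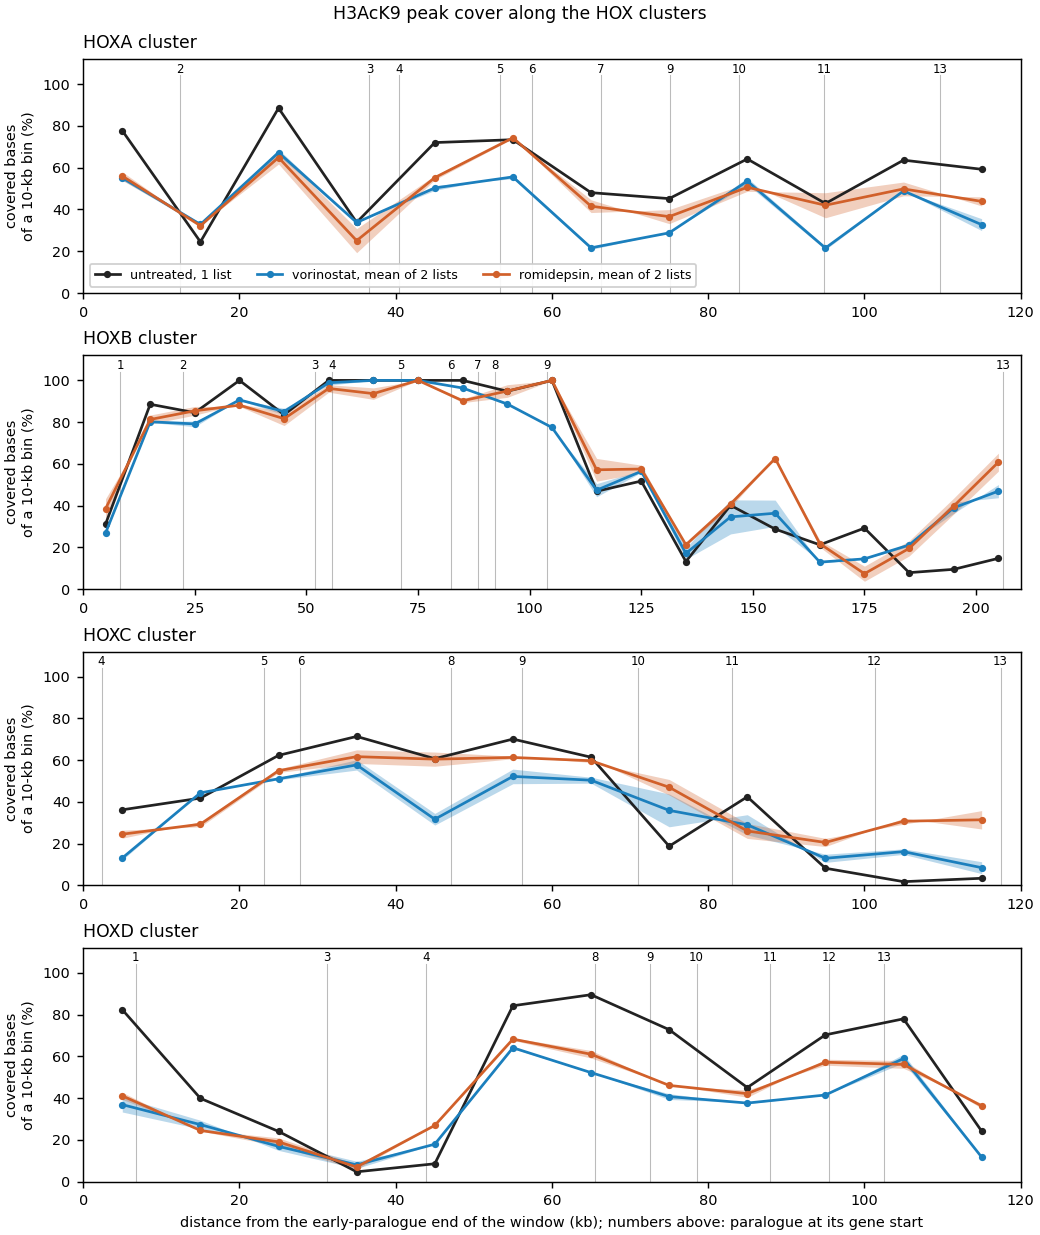
Covered share (%) of consecutive 10-kb bins against distance (kb) from the early-paralogue end of each window, for untreated cells (black) and for the mean of both vorinostat (blue) and both romidepsin lists (orange), with shading between the 2 lists of a drug and paralogue numbers at gene starts. HOXB stays at 88% or more from HOXB3 to HOXB8 in all conditions. The last 20 kb of HOXB and of HOXC lie above the untreated line with both drugs, while the bin of HOXC11 lies below it.

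Along the clusters, cover was followed in 57 bins of 10 kb from early to late paralogues. With vorinostat 39 bins were lower and 16 higher than in untreated cells, and with romidepsin 34 were lower and 21 higher. Shares of 10-kb bins across the genome were not computed, so these counts cannot be set against a background. Cover of the whole lists was also lower, at 0.879 and 0.920 times untreated. In HOXD the first 40 kb, around HOXD1 and HOXD3, were covered to 37.8% in untreated cells and to 22.3% and 23.0% with vorinostat and romidepsin. In HOXA and HOXD the first, the middle and the last 40 kb were each lower with both drugs. The last 70 kb of HOXB, beyond HOXB9 and reaching to HOXB13, instead had 21.7% in untreated cells, 31.6% and 27.2% with vorinostat and 38.4% and 33.9% with romidepsin. In the last 40 kb of HOXC, which hold HOXC11, HOXC12 and HOXC13, cover was 14.0% in untreated cells, 17.02% and 16.4% with vorinostat and 29.4% and 25.1% with romidepsin. In sum these late stretches had more cover than untreated in all 4 treated lists, from a low untreated level, but not in each of their bins. The bin of HOXC11 was covered to 42.5% in untreated cells and to 24.2%, 33.9%, 29.7% and 22.5% in the vorinostat and romidepsin lists, and the HOXB bin from 170 to 180 kb was covered to 29.3% in untreated cells and to between 3.83% and 14.7% in treated lists.

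The bin of HOXC12 was covered to 1.83% in untreated cells, the lowest of the 57 bins, and to 17.5% and 14.9% with vorinostat and 29.3% and 32.2% with romidepsin. For the bin of HOXC13 the shares were 3.45%, 11.4%, 5.68%, 35.9% and 27.1% in the same order of lists. The bin of HOXB13 had 14.8% in untreated cells, 50.1% and 43.8% with vorinostat and 65.1% and 56.6% with romidepsin. In each of the 3 bins the romidepsin lists lay above the vorinostat lists, and the vorinostat lists above untreated.

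At gene starts, cover was measured in the 2000 bp centred on each start. Of the 38 genes, 31 had a covered base in untreated cells, 24 had at least 1000 bp covered and 16 were covered throughout. Across 2-kb tiles of the 4 chromosomes that carry the clusters, 32.7% had a covered base and 2.39% were covered throughout. These tiles are not gene starts, so no tile share is a background for promoters, and calls at other gene starts were not computed. The start itself lay in an untreated peak at 23 of the 38 genes. Among other protein-coding genes near the clusters, this held for 61.4% of starts at HOXA, 65.7% at HOXB, 63.1% at HOXC and 78.3% at HOXD. As a set, HOX starts thus did not lie in peaks more often than gene starts nearby. The median HOX start was covered for 1404 bp in untreated cells, 1092 bp with vorinostat and 1196 bp with romidepsin. A start was called lower when the mean of both lists was no more than 0.5 times the untreated cover, and higher when it was at least 2 times that cover.

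With vorinostat, 7 of the 35 starts with a covered base were lower, or 20.0%, against 26.1% of tiles. Another 6 were higher, against 49.3% of tiles. With romidepsin, 3 of 36 starts were lower, or 8.33%, against 24.5% of tiles, and 9 were higher, against 48.0% of tiles. The shares of higher starts and tiles cannot be compared as they stand, since 24 starts had at least 1000 bp covered in untreated cells and so could not double within the window, which held for 9.03% of tiles. Of the starts with less untreated cover, 6 of 11 were higher with vorinostat, or 54.5%, where such tiles gave 58.2%, and 9 of 12 with romidepsin, or 75.0%, where such tiles gave 57.3%. A start or tile at 0 in untreated cells counts as higher with any treated base. Among the 24 starts with at least 1000 bp covered in untreated cells, 4 were lower with vorinostat, or 16.7%, where such tiles gave 40.2%. With romidepsin 3 of the 24 were lower, or 12.5%, where such tiles gave 34.0%. Most starts stayed between both limits, 22 with vorinostat and 24 with romidepsin. Without counting size, both lists lay below the untreated cover at 19 starts with vorinostat and 14 with romidepsin, and above it at 6 and 12. No share of tiles was computed for these last counts, and starts covered throughout in untreated cells could not lie above. They are therefore not read as a result about HOX starts.

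Of the 16 starts covered throughout in untreated cells, 6 remained so in both vorinostat lists, or 37.5%, against 10.7% of tiles. In both romidepsin lists 5 of the 16 did, or 31.2%, against 6.59% of tiles. These starts were almost all from HOXB, with 6 of 6 for vorinostat and 4 of 5 for romidepsin, the exception being HOXD9. Outside HOXB, 0 of 8 fully covered starts remained so with vorinostat and 1 of 8 with romidepsin.

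Between the drugs, both romidepsin lists lay above both vorinostat lists at 21 of 36 starts, or 58.3%, against 33.4% of tiles, and below them at 3 of 36, or 8.33%, against 28.7% of tiles. The 3 starts with less cover under romidepsin were those of HOXA3, HOXB7 and HOXC12. At HOXA10, HOXC4 and HOXD4 the drugs lay on opposite sides of the untreated value in both of their lists. HOXA10, which acts in uterine development, had 1320 bp in untreated cells, 763 and 712 bp with vorinostat and 1555 bp in each romidepsin list.

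**Figure D3:**
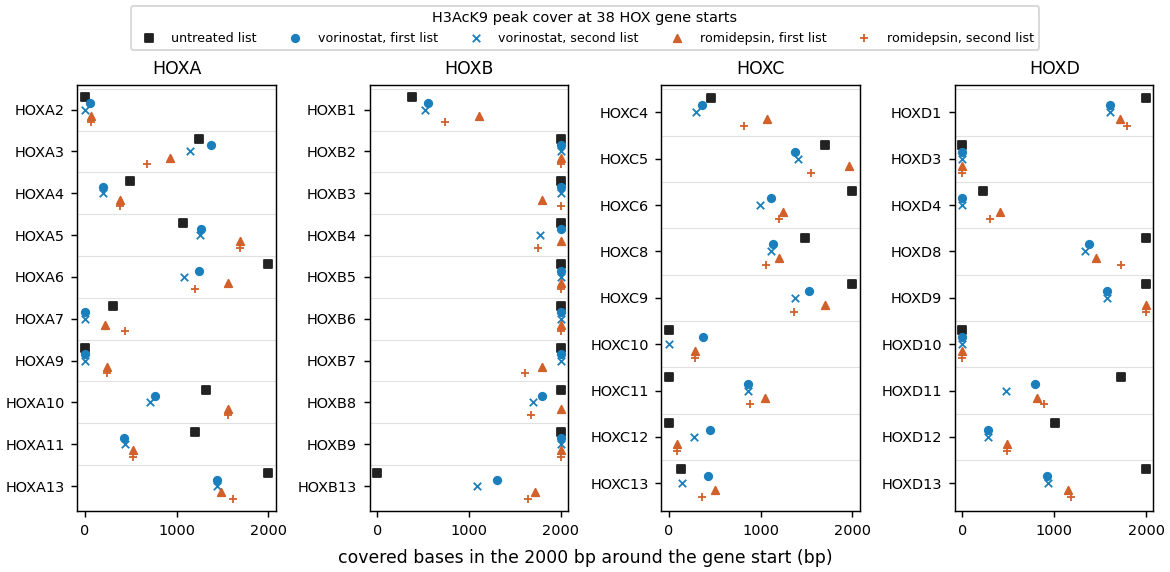
Covered bases (bp) in the 2000 bp around each of the 38 HOX gene starts, ordered from early to late paralogue in each cluster, with 1 symbol per peak list. HOXB2 to HOXB9 sit between 1607 and 2000 bp in all lists. HOXA11, HOXD11 and HOXD12 lie lower in treated than untreated lists. HOXB13 and HOXC10 to HOXC13 lie at or close to 0 in untreated cells.

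The central HOXB genes formed the most heavily covered block. In untreated cells 1 peak of 54003 bp, at chr17:46642665-46696667, spanned the starts of HOXB3, HOXB4, HOXB5, HOXB6, HOXB7 and HOXB8, and it was the second widest of all 376666 untreated peaks. Vorinostat lists covered 98.3% and 97.6% of it in 4 and 5 pieces, and romidepsin lists 96.1% and 92.0% in 9 and 14 pieces. The block was thus in more pieces with nearly all its bases covered. Its largest piece with vorinostat was the widest peak of the whole list, at 43329 bp in the first list and 29536 bp in the second. With romidepsin the piece over HOXB5 and HOXB6 was 15171 bp wide in both lists and ranked 3 and 1 by width.

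HOXB2, which acts in the hindbrain, and HOXB5, HOXB6 and HOXB9, which act in the trunk, had 2000 of 2000 bp covered in all 5 lists. HOXB4, known for its part in blood stem cell renewal, had 2000 bp in untreated cells, 2000 and 1772 bp with vorinostat and 2000 and 1749 bp with romidepsin. HOXB3, HOXB7 and HOXB8 had between 1607 and 2000 bp in every treated list. None of the 8 starts from HOXB2 to HOXB9 was lower by the 2-fold limit with either drug, although with peaks of a score under 1 left out HOXB2, HOXB5 and HOXB6 were lower with vorinostat. HOXB9 had its own untreated peak of 13062 bp, of which 79.8% and 80.7% were covered with vorinostat and 100% in both romidepsin lists. HOXB1, a hindbrain gene at the early end, stood outside the block, with 381 bp in untreated cells, 557 and 519 bp with vorinostat and 1105 and 736 bp with romidepsin, a fold of 1.41 and 2.42. The romidepsin call of HOXB1 was kept in 5 of 9 alternatives and was lost with the second list alone.

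**Figure D4:**
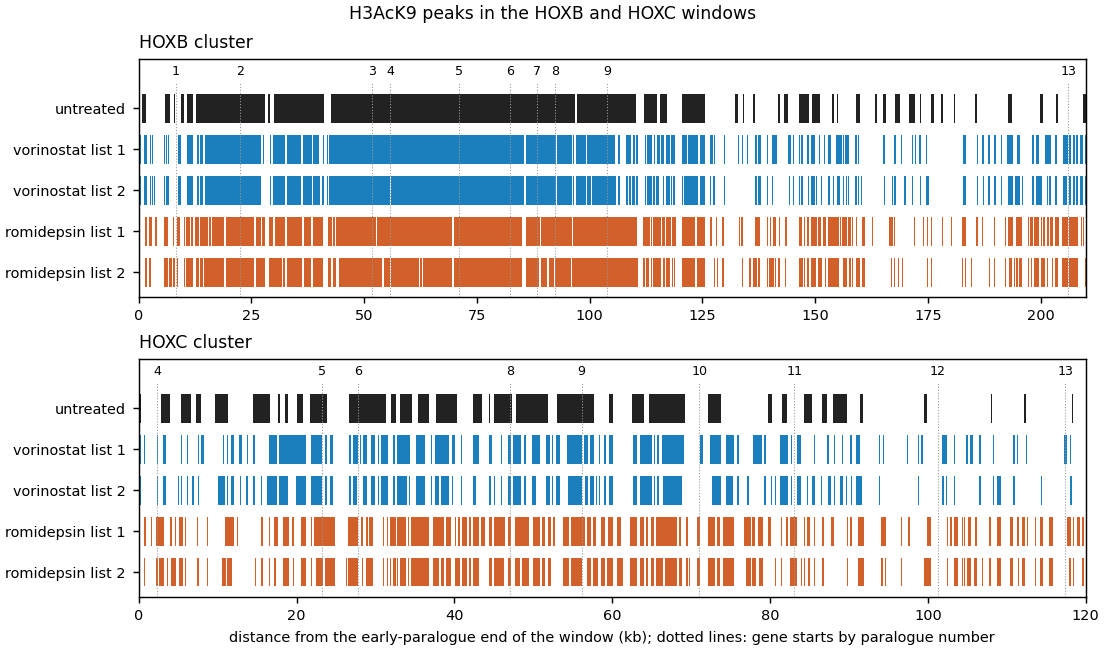
H3AcK9 peaks of the 5 lists as bars along the HOXB and HOXC windows (distance in kb from the early-paralogue end), with dotted lines at gene starts named by paralogue. The block from HOXB3 to HOXB8 is continuous in untreated cells and nearly so in treated lists, and treated peaks appear around HOXB13, HOXC12 and HOXC13 where the untreated list has few.

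At the late end of HOXB and HOXC, starts had little or no cover in untreated cells and more in treated lists. HOXB13, a regulator of prostate and tail bud development, had 0 bp in untreated cells, 1306 and 1087 bp with vorinostat and 1721 and 1638 bp with romidepsin. Every treated list lay above untreated, and the nearest untreated peak lay 2324 bp from the start. Among tiles with under 1000 bp of untreated cover, 58.2% and 57.3% were also called higher with vorinostat and romidepsin. Over the gene body of HOXB13, 9.94% was covered in untreated cells, 47.2% and 41.6% with vorinostat and 73.2% and 56.3% with romidepsin. The call of HOXB13 was made under all 9 alternatives with either drug.

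HOXC11, a gene of the lumbosacral region, had 6 bp of untreated cover, the edge of a peak, 859 and 862 bp with vorinostat and 1053 and 890 bp with romidepsin. HOXC13, which drives hair keratin genes, had 130 bp in untreated cells, 430 and 143 bp with vorinostat and 504 and 360 bp with romidepsin. The second vorinostat list of HOXC13 was thus close to untreated, and that call was lost with it alone. Over the gene body of HOXC13 the shares were 2.41% in untreated cells, 9.04% and 4.82% with vorinostat and 31.3% and 26.9% with romidepsin. HOXC12 had 0 bp in untreated cells, 444 and 274 bp with vorinostat and 93 bp in both romidepsin lists, although its 10-kb bin held more cover with romidepsin than with vorinostat. The gene body of HOXC12 was covered to 16.0% in untreated cells, 0% and 3.12% with vorinostat, below untreated, and 27.5% and 44.6% with romidepsin, above it. HOXC10 had 0 bp in untreated cells, 368 and 0 bp with vorinostat and 285 bp in both romidepsin lists. The vorinostat value of HOXC10 therefore rests on 1 list, and the share of its gene body that was covered was lower in all 4 treated lists, between 46.6% and 58.8%, than in untreated cells, at 64.5%. In windows of 2000 bp on each side, the starts of HOXC10 and HOXC11 were no longer called higher with either drug, and that of HOXC12 not with vorinostat.

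The posterior genes of HOXA and HOXD differed from those of HOXB and HOXC in untreated cover and in calls. Of their 9 starts, 4 were lower and 0 higher with vorinostat, and 3 were lower and 1 higher with romidepsin, against 0 lower and 5 higher with either drug among the 7 posterior starts of HOXB and HOXC. Untreated cover differed between the sets, with a median of 1320 bp in the first and 6 bp in the second, so that they could not move equally in both directions. Tiles with at least 1000 bp of untreated cover were lower in 40.2% and 34.0% with vorinostat and romidepsin. Tiles with less untreated cover were higher in 58.2% and 57.3%. Whether the sets differed beyond their untreated cover was not tested. HOXA11, HOXD11 and HOXD12 were the only starts called lower with both drugs.

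Promoters of these 3 genes are shown because they were lower with both drugs, with that of HOXD10, which had no peak base at its start in any list, and that of HOXA13, the last gene of its cluster, which was covered in every list. The sequences are from RefSeq (GRCh38.p14), hold 300 bases around each start on the strand of the gene, most of them upstream, and have CpG dinucleotides in capitals. Of the 38 genes, 20 matched the promoter table by symbol. HOXA11 lies at chr7:27185183-27185482 (minus strand), HOXD11 at chr2:176107030-176107329 (plus strand), HOXD12 at chr2:176099545-176099844 (plus strand), HOXD10 at chr2:176116528-176116827 (plus strand) and HOXA13 at chr7:27200042-27200341 (minus strand) of that build, on which no peak was placed.
HOXA11: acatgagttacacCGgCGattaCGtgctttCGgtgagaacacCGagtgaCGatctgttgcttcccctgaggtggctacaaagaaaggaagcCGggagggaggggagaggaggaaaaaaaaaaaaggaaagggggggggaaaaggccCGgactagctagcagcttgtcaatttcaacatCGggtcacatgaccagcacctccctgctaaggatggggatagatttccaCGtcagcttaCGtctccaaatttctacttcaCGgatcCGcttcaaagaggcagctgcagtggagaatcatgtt
HOXD11: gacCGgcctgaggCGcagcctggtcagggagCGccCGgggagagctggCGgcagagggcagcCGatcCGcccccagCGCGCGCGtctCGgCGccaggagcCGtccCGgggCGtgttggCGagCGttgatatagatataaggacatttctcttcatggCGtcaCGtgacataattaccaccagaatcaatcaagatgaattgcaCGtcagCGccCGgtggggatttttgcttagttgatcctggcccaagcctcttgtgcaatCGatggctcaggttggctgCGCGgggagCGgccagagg
HOXD12: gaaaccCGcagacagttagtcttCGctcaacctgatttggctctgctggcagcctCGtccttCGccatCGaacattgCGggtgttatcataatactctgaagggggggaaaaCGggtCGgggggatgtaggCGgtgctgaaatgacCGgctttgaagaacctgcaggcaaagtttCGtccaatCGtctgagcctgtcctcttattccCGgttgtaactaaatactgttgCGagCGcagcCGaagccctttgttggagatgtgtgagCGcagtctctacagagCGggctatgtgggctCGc
HOXD10: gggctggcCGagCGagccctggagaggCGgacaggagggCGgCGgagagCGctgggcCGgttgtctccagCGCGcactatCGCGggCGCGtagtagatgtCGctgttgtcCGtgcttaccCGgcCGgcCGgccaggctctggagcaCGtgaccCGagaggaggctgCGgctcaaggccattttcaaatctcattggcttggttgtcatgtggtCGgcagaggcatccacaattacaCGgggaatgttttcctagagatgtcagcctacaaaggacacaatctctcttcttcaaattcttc
HOXA13: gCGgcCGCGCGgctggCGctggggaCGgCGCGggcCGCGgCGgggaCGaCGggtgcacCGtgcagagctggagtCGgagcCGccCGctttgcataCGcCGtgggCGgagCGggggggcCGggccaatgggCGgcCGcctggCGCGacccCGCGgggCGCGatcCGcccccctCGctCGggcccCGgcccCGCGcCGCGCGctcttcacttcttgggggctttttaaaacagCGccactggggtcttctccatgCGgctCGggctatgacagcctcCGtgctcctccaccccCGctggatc
The CpG dinucleotide occurred 13 times in the promoter of HOXA11, 27 times in HOXD11, 19 times in HOXD12, 23 times in HOXD10 and 44 times in HOXA13. Of all 35116 promoters in the table, 51.7%, 28.2%, 42.9%, 35.8% and 4.19% held at least as many, in the same order. The median was 22 CpG over the 27 promoters of matched HOX genes and 14 over all promoters. HOXA3 and HOXA10 enter with several promoters, HOXB with HOXB1 alone and HOXC with HOXC4 and HOXC5 alone. Values over matched promoters therefore do not describe all HOX genes. The motif TATAAA, searched on both strands, was found in none of the 5 promoters shown, in 5 of the 27 HOX promoters and in 11.5% of all promoters. CpG number did not order the 5 genes by cover, since HOXD10 with none lay between HOXD12 and HOXD11.

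HOXA11, needed for the uterus and the forearm, had 1204 bp in untreated cells, 431 and 437 bp with vorinostat and 530 bp in each romidepsin list, a fold of 0.360 and 0.440. Treated lists lay far below untreated and close to each other, and the start itself, inside a peak in untreated cells, lay between 564 and 571 bp from the nearest peak in treated lists. The gene body of HOXA11 was covered to 75.6% in untreated cells, 34.4% and 34.7% with vorinostat and 47.2% and 57.3% with romidepsin. The calls of HOXA11 were kept in 8 of 9 alternatives, and with peaks of a score under 1 left out the start had no base with vorinostat and was higher with romidepsin.

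HOXD12, a digit gene, had 1006 bp in untreated cells, 279 bp in each vorinostat list and 490 bp in each romidepsin list, a fold of 0.277 and 0.487. HOXD11, which acts in the forearm and kidney, had 1732 bp in untreated cells, 791 and 471 bp with vorinostat and 815 and 890 bp with romidepsin, a fold of 0.364 and 0.492. Both genes were lower in every treated list. The calls of HOXD12 were kept in 7 of 9 alternatives with either drug, and those of HOXD11 in 7 with vorinostat and in 3 with romidepsin, whose fold lay at the limit. With peaks of a score under 1 left out, HOXD11 turned higher with both drugs. HOXD13, whose mutation fuses digits, had 2000 bp in untreated cells, 920 and 935 bp with vorinostat and 1148 and 1183 bp with romidepsin, at folds of 0.464 and 0.583. The start of HOXD13 was called lower with vorinostat in 5 of 9 alternatives and turned higher with the filter on score. HOXA13, which shapes the hindgut and digits, had 2000 bp in untreated cells, 1442 and 1437 bp with vorinostat and 1483 and 1614 bp with romidepsin. HOXD9 had 2000 bp in untreated cells and in both romidepsin lists and 1571 bp in each vorinostat list.

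HOXA9, at the upper end of the Müllerian pattern, had 0 bp in the untreated and vorinostat lists and 245 bp in each romidepsin list. HOXD10, a gene of the limb and lumbar motor neurons, and HOXD3, which acts in the neck, were the 2 starts without a base in any list. The nearest peak lay between 1151 and 1539 bp from the start of HOXD10. Its gene body was covered to 61.3% in untreated cells, 31.1% and 30.3% with vorinostat and 11.4% and 16.1% with romidepsin. The body of HOXD3 was covered to 23.6% in untreated cells and between 12.02% and 20.0% in treated lists. An uncovered start thus went with partly covered gene bodies in both genes, which were less covered in all treated lists.

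Among the early and central genes of HOXA, HOXC and HOXD, the starts of HOXA6, HOXC6, HOXD1 and HOXD8 were covered throughout in untreated cells and partly in every treated list. HOXA6 had 2000 bp in untreated cells, 1239 and 1080 bp with vorinostat and 1560 and 1197 bp with romidepsin. HOXC6, which acts in the thorax and mammary gland, had 2000 bp in untreated cells, 1118 and 994 bp with vorinostat and 1246 and 1206 bp with romidepsin. HOXD1 had 2000 bp in untreated cells, 1606 bp in both vorinostat lists and 1716 and 1787 bp with romidepsin. These starts were lower in every treated list, and the mean of both lists did not reach the 2-fold limit. HOXC6 came closest, at 0.528 with vorinostat, and passed it with the second list alone. HOXD8 and the posterior gene HOXC9 were of the same kind, with untreated values of 2000 bp and treated values between 1340 and 1732 bp. HOXC8 was lower in every treated list, with 1487 bp in untreated cells and between 1055 and 1198 bp in treated lists.

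HOXA5, which is needed for lung development, differed from its neighbours, with 1071 bp in untreated cells, 1268 and 1254 bp with vorinostat and 1693 bp in each romidepsin list. HOXC5 had 1701 bp in untreated cells, 1371 and 1412 bp with vorinostat and 1964 and 1554 bp with romidepsin, so that only its romidepsin lists enclosed the untreated value. HOXC4 had 455 bp in untreated cells, 364 and 296 bp with vorinostat and 1069 and 823 bp with romidepsin, a fold of 0.725 and 2.08, the latter call kept in 5 of 9 alternatives. HOXA4, HOXA7 and HOXD4 were called lower with vorinostat from small untreated values of 496, 302 and 223 bp. Vorinostat left 198 bp at HOXA4 in both lists and 0 bp at HOXA7 and HOXD4, whereas romidepsin gave 385 bp at HOXA4 in both lists, 216 and 443 bp at HOXA7 and 407 and 303 bp at HOXD4. HOXA2, a gene of the hindbrain and second pharyngeal arch, had 0 bp in untreated cells and at most 69 bp in any list, and was called higher with both drugs on these few bases. At HOXA3 the start used, with 1248 bp in untreated cells, 1378 and 1147 bp with vorinostat and 931 and 672 bp with romidepsin, lay 7424 bp from the nearest annotated start, and at a second start of the gene the untreated 2000 bp became 1065 and 1326 bp with vorinostat and 1212 bp in both romidepsin lists.

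The clusters also hold microRNAs and long noncoding RNAs, whose starts were measured in the same way. Mature microRNAs of MIR10A, MIR196A1, MIR196A2 and MIR196B are shown because these loci sit in stretches that behaved differently. MIR196A1 and MIR196A2 both give miR-196a-5p. The seed, bases 2 to 8, is in capitals (RefSeq).
hsa-miR-10a-5p: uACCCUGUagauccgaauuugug
hsa-miR-196a-5p: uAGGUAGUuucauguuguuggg
hsa-miR-196b-5p: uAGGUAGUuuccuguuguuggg
miR-196a-5p and miR-196b-5p share their seed, and miR-196 is known to target HOXB8. MIR10A, in the HOXB block near HOXB4, had 2000 bp covered in all 5 lists. MIR196B, near HOXA9, had 2000 bp in untreated cells, 1376 bp in both vorinostat lists and 1250 and 1247 bp with romidepsin. MIR196A1, near HOXB9, had 1328 bp in untreated cells, 1055 and 1214 bp with vorinostat and 1633 and 1800 bp with romidepsin. MIR196A2, in HOXC, had 1365 bp in untreated cells and between 1315 and 1675 bp in treated lists. The loci of 1 seed thus differed in cover between clusters. MIR10B, in HOXD near HOXD4, had 50 bp in untreated cells, 300 and 316 bp with vorinostat and 713 and 366 bp with romidepsin, and was the only one of the 7 noncoding starts past the 2-fold limit with either drug.

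HOTTIP, a noncoding RNA at the late end of HOXA that is tied to activity of the posterior HOXA genes, had 2000 bp in untreated cells, 1842 bp in both vorinostat lists and 1452 bp in both romidepsin lists. HOTAIR, transcribed from HOXC and known for acting with Polycomb on HOXD, had 601 bp in untreated cells, 998 and 1149 bp with vorinostat and 399 and 307 bp with romidepsin. The drugs thus lay on opposite sides of the untreated value at HOTAIR, at folds of 1.79 and 0.587, neither of which reached the 2-fold limit.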

How the data were processed

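ChIP-seq of H3AcK9 in SKOV3 wt cells was used as the authors' deposited peak lists, 1 per condition or per part of a split sample. The 3 input samples have no list here and enter no result. The authors aligned reads, with BWA among the tools named in the submitters' notes, and called peaks with MACS 1.4.2. Each peak carries a score deposited by the authors, whose scale is not given in the sources used here. It served only in 1 alternative. The notes name hg38, but between 2426 and 6693 peaks per list lie past hg38 chromosome ends, and contig names are those of hg19, so coordinates were taken as hg19 and none was converted. No hg19 annotation was used. Gene starts on hg19 were entered by hand and checked by their spacing against GENCODE annotation of hg38, where 33 of 38 fell within 100 bp and 37 within 500 bp of an annotated start.

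Covered bases, peaks (overlap of at least 1 bp) and folds (mean of both treated lists over untreated) were computed with Python 3.11.15, NumPy 2.4.6 and pandas 2.3.3, and figures drawn with Matplotlib 3.10.9. Functions were tested on simulated data and recovered 16 of 16 quantities. Every one of the 38 genes is accounted for. Values in every list were given for the gene with the highest and lowest untreated cover of each cluster, for genes called the same way with both drugs and for genes without a base, and other genes were added after their values were seen. The comparison of higher calls among starts under 1000 bp was added after seeing the data. Members and lists were chosen with earlier results of these data known. Alternatives were each list alone, filters on score and width, joining of peaks, other windows and another fold.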

Additional observations from a re-analysis of the deposited data

How the results depend on the processing

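With 1 sample per condition, the values describe these libraries, and depth is unknown. No paired analysis was possible because the conditions share only replicate number 1 and no test was made. Of 62 values of the totals under an alternative, 37 moved by no more than the allowed spread, 21 moved further and 4 changed side. Counts of starts were labelled only as moved or not, so they could not change side. All 4 changes of side were in cover or peak number, and 4 of 62 is not a rate of reversal. For single clusters and HOXA3, 3 of 50 values stayed within the allowed spread, 37 moved further and 10 changed side. For cover the allowed spread took each base as an independent trial, and for counts it was a fixed fold. It served only to label values and gives no error between samples.

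Cover of the 4 clusters with vorinostat, 0.845 times untreated, was 0.861 and 0.829 with the first and second list alone, 0.543 with scores of at least 1, 0.761 with widths of at least 300 bp, 0.911 with gaps of up to 300 bp joined and 1.11 with gaps of up to 1000 bp joined. With romidepsin, 0.955 became 0.976, 0.934, 0.801, 0.867, 1.06 and 1.28 in the same order. Under these settings the whole lists gave, for vorinostat, 0.898, 0.860, 0.622, 0.650, 0.975 and 1.28, and for romidepsin 0.944, 0.896, 0.604, 0.714, 1.04 and 1.36. Whole-list folds take all chromosomes that each list holds. Relative to the whole lists, the vorinostat fold of the clusters was therefore higher with the filter on width and lower with gaps of 1000 bp joined.

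Single clusters changed side as follows. HOXB with vorinostat gave 0.985 with the second list alone, 0.665 with the score filter and 0.947 with the width filter, and with romidepsin 0.951 with the score filter. HOXC with vorinostat gave 1.31 with gaps of 1000 bp joined, and with romidepsin 0.338 with the score filter and 0.913 with the width filter. HOXA and HOXD with romidepsin gave 1.13 and 1.15 with gaps of 1000 bp joined. The score filter also gave the largest moves without a change of side, with vorinostat from 0.724 to 0.154 in HOXA and from 0.843 to 0.205 in HOXC. HOXA3 with vorinostat gave 0.598 at its second start, an alternative chosen after seeing the data.

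Peak number, 2.79 times untreated with vorinostat and 3.28 with romidepsin, became 1.58 and 1.99 with the score filter, 1.59 and 1.99 with the width filter and 1.29 and 0.962 with gaps of 1000 bp joined, where joining by construction lowers the number of peaks. Starts lower with vorinostat, 7, became 11 with the score filter and 4 within 2000 bp. Starts lower with romidepsin, 3, became 8 with the score filter, 5 with the width filter, 1 within 2000 bp and 6 at a fold of 1.5. Starts higher with vorinostat, 6, became 3 with the second list alone. Other causes of these changes were not tested.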
